A study of Mus musculus with 9 samples.

Results

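Transcriptional regulators of cardiac energy metabolism, 10 genes in all, were followed across 9 left ventricular RNA libraries. They are the coactivators *Ppargc1a* and *Ppargc1b*, the nuclear receptors *Esrra*, *Esrrb*, *Esrrg* and *Ppara*, the mitochondrial biogenesis factors *Nrf1*, *Gabpa* and *Tfam*, and the Krüppel-like factor *Klf15*. The 10 members were chosen with earlier results of the same data known. They were found by symbol among 52636 Ensembl genes, and all 10 were among the 16322 genes that passed the filter on low counts. Their lowest raw count in any library was 126, for *Esrrb* in library 3.

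The mice were C57BL6J and 16 weeks old, and the tissue was the left ventricle. Libraries 1 to 5 are labelled VDAC2 WT (n = 5) and libraries 6 to 9 VDAC2 KO (n = 4), the KO being a deletion of floxed *Vdac2*, the gene of voltage dependent anion channel 2 in the outer mitochondrial membrane, by an αMHC-driven Cre active in cardiac myocytes from development on. The labels do not say whether each library is 1 animal, so p-values measure the spread between these libraries. *Vdac2* (chromosome 14 of GRCm38, 21825238 to 21845879) was measured in CPM, the counts scaled to an equal library size. Libraries 1 to 5 of the label WT held 20.2, 366, 58.5, 365 and 21.3 CPM, whereas libraries 6 to 9 of the label KO held 384, 20.5, 421 and 19.1 CPM. Both labels thus hold libraries of low and of high *Vdac2*, and the difference between the labels was 0.35 on the log2 scale (SE 1.19, adjusted p = 0.921 by edgeR).

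Beside the labelled groups, 4 libraries chosen by a *Vdac2* level under 100 CPM (1, 5, 7 and 9) were set beside 4 chosen by a level over 300 CPM (2, 4, 6 and 8). They are called the low and the high *Vdac2* libraries, and each set holds 2 libraries labelled WT and 2 labelled KO. The nearest levels to these limits were 21.3 CPM in the low and 365 CPM in the high set. Library 3, also under 100 CPM at 58.5 CPM, is shown apart. Because the sets were selected on a measured value and the regulators were picked with earlier results of the same data known, the differences between the sets are a description without a test, and no library is called knockout or wild type from its *Vdac2* level.

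Each library held 27345052 to 44673988 counts. A level of 3 counts corresponded to between 0.0693 and 0.114 CPM. Libraries labelled WT came from lane 1 and those labelled KO from lane 2. *Xist* was at 0.152 CPM or less in every library labelled WT and at 335.0 to 587 CPM in those labelled KO, so that the label, the lane and the expression of sex-linked genes cannot be told apart. Library 3 differed from the rest, with 9.07% of its counts from mitochondrially encoded genes against 16.8% to 19.2% elsewhere and a TMM scaling factor of 1.30. In it, the summed level of 8 cardiomyocyte markers was 9702 CPM, while the remaining 8 spanned 46990 to 63490 CPM, and the fibroblast and leukocyte sums were above all 8. All 8 cardiomyocyte markers were present in the other 8, the ventricular light chain gene *Myl3*, for one, at 2470 to 3789 CPM, while the adipocyte markers *Adipoq*, *Plin1*, *Cfd*, *Lep* and *Ucp1* were each under 1 CPM in every library.

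The heart takes most of its ATP from mitochondrial oxidation of fatty acids. PGC-1α and PGC-1β, the products of *Ppargc1a* and *Ppargc1b*, do not bind DNA themselves but are recruited by the estrogen-related receptors (ERRα, ERRβ and ERRγ), by PPARα and by NRF1 and GABP, and strengthen the transcription these factors drive. ERRs act mainly on genes of the citric acid cycle and the respiratory chain, PPARα on genes of fatty acid uptake and β-oxidation, and NRF1 and GABP on respiratory chain subunits and on *Tfam*, whose product packages and transcribes mitochondrial DNA.

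Some of the regulators have letters matching the motif of another of these factors just upstream of a RefSeq transcription start. These stretches are shown because GABP and NRF1 are themselves among the regulators. RefSeq (GRCm38.p6) gave 14 promoter windows for 9 of the 10 genes, from 250 bases before to 50 bases after a transcription start, and 3 windows held a match. Motifs were searched on both strands as the ERR element TCAAGGTCA, its core AAGGTCA contained in it, the NRF1 core GCATGCGC and the GABP (ETS family) site CCGGAAGT. Each stretch is 30 bases long, read 5′ to 3′ on the strand of the gene, with the matched letters in capitals.
*Tfam*, GABP motif, chr10:71238073-71238102, minus strand: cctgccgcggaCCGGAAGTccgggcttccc
*Ppara*, NRF1 core, chr15:85735735-85735764, plus strand: gggctcggtgGCGCATGCGCgcggactagg
*Esrra*, NRF1 core, chr19:6921824-6921853, minus strand: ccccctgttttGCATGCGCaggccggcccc

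The *Tfam* match lies 47 to 40 bases before the RefSeq start, within an exon of a longer *Tfam* transcript in the GENCODE annotation. In *Ppara* the capitals span 31 to 22 bases before the RefSeq start and hold 2 overlapping matches, 1 on each strand, because the core is nearly palindromic. This stretch lies inside the GENCODE span of *Ppara*, which begins further upstream, at 85734983. The *Esrra* match spans 34 to 27 bases before the start. Of all 32851 windows of this length, 3.89% held the GABP motif, 2.71% the NRF1 core, 4.72% the ERR core and 0.423% the ERR element, which none of the member windows held. A match is a description of the letters and not a measured binding site.

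The coactivators come first. *Ppargc1a* (ENSMUSG00000029167, chromosome 5, 51454250 to 51567726) was at 133.6, 129.7, 136.6 and 125.4 CPM in low *Vdac2* libraries 1, 5, 7 and 9, and at 150.8, 151.0, 171.8 and 137.4 CPM in high *Vdac2* libraries 2, 4, 6 and 8. The sets did not overlap, but library 7 of the low and library 8 of the high set nearly met. The means were 131 ± 4.84 and 153 ± 14.2 CPM (SD, n = 4 each), the low set being 13.8% below the high one, a log2 difference of -0.21 (SD 0.05 within the low and 0.13 within the high set). Its relative *Ppargc1b* (ENSMUSG00000033871, chromosome 18, 61298136 to 61400431) was at 12.2, 10.3, 16.5 and 9.56 CPM in the low set and 13.8, 12.0, 20.1 and 12.2 CPM in the high set. Its sets overlapped, and its log2 difference of -0.25 was smaller than the SD of 0.34 within the low set. It came to -0.09 without library 6, to -0.15 without library 9 and to -0.40 without library 7.

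Among the estrogen-related receptors, *Esrrb*, which encodes ERRβ, had the largest relative difference of the 10 regulators. *Esrrb* (ENSMUSG00000021255, chromosome 12, 86361117 to 86521628) was at 10.8, 13.4, 15.0 and 11.8 CPM in libraries 1, 5, 7 and 9, and at 15.9, 18.5, 20.2 and 17.1 CPM in libraries 2, 4, 6 and 8. All 4 low *Vdac2* libraries lay below all 4 high ones, by 28.2% on average (log2 difference -0.48, SD 0.20 and 0.14). In library 3, which is in neither set, its level rested on few reads, 126 counts.

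*Esrra* (ENSMUSG00000024955, chromosome 19, 6910977 to 6921813), which encodes ERRα, the main partner of PGC-1α on respiratory genes, was at 82.1, 85.8, 80.1 and 102 CPM in the low set and 88.8, 91.9, 97.5 and 95.0 CPM in the high set. Low library 9 held the highest level of all 9 libraries, so the sets overlapped (log2 difference -0.10, SD 0.16 and 0.06). Without library 9 they did not, and the difference was -0.17, while without library 7 it was -0.06. *Esrrg* (ENSMUSG00000026610, chromosome 1, 187608791 to 188214885), the gene of ERRγ, which is abundant in the adult heart, was at 59.6, 51.7, 52.4 and 40.3 CPM in the low set and 54.0, 59.8, 54.1 and 54.2 CPM in the high set. The sets overlapped, and library 9, highest for *Esrra*, was the lowest of these 8 for *Esrrg* (log2 difference -0.13, SD 0.23 and 0.07, with -0.03 without library 9 and -0.21 without library 1).

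*Ppara* (ENSMUSG00000022383, chromosome 15, 85734983 to 85802819), the gene of the fatty acid receptor PPARα, was at 41.3, 46.1, 47.4 and 41.0 CPM in the low set and 55.7, 55.7, 65.6 and 52.6 CPM in the high set. The sets were separated by a gap from 47.4 to 52.6 CPM. The means were 43.9 ± 3.28 and 57.4 ± 5.65 CPM (SD, n = 4 each), 23.1% lower in the low set (log2 difference -0.38, SD 0.11 and 0.14).

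The 3 biogenesis factors had differences between -0.17 and -0.12. *Nrf1* (ENSMUSG00000058440, chromosome 6, 30047988 to 30153458), nuclear respiratory factor 1, was at 16.6, 16.8, 16.0 and 15.4 CPM in the low set and 18.8, 19.1, 17.3 and 17.7 CPM in the high set. Its sets did not overlap and each was narrow (log2 difference -0.17, SD 0.06 and 0.07). *Gabpa* (ENSMUSG00000008976, chromosome 16, 84834925 to 84863779), the DNA-binding subunit of GABP, was at 82.4, 85.1, 86.0 and 87.3 CPM against 84.1, 95.6, 94.9 and 100.2 CPM, and only high library 2 reached into the low set (log2 difference -0.13, SD 0.04 and 0.11). *Gabpa* shares 397 exon bases, 6.98% of its length, with *Atp5j* on the opposite strand, and whether the counting used strand is not given in the sources used here.

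*Tfam* (ENSMUSG00000003923, chromosome 10, 71225464 to 71238280) was at 39.9, 43.2, 39.7 and 46.1 CPM in the low set and 42.3, 42.5, 48.8 and 49.8 CPM in the high set. These overlapped, with a log2 difference of -0.12 (SD 0.10 and 0.13), which came to -0.07 without library 8. *Klf15* (ENSMUSG00000030087, chromosome 6, 90462576 to 90475238), a glucocorticoid-responsive factor that acts on lipid and branched-chain amino acid metabolism, was at 46.1, 45.1, 45.1 and 48.2 CPM in the low set and 52.1, 48.5, 64.1 and 58.0 CPM in the high set. Its low set was tight and lay just below the high one, by 16.6% on average (log2 difference -0.26, SD 0.04 and 0.17).

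**Figure D1:**
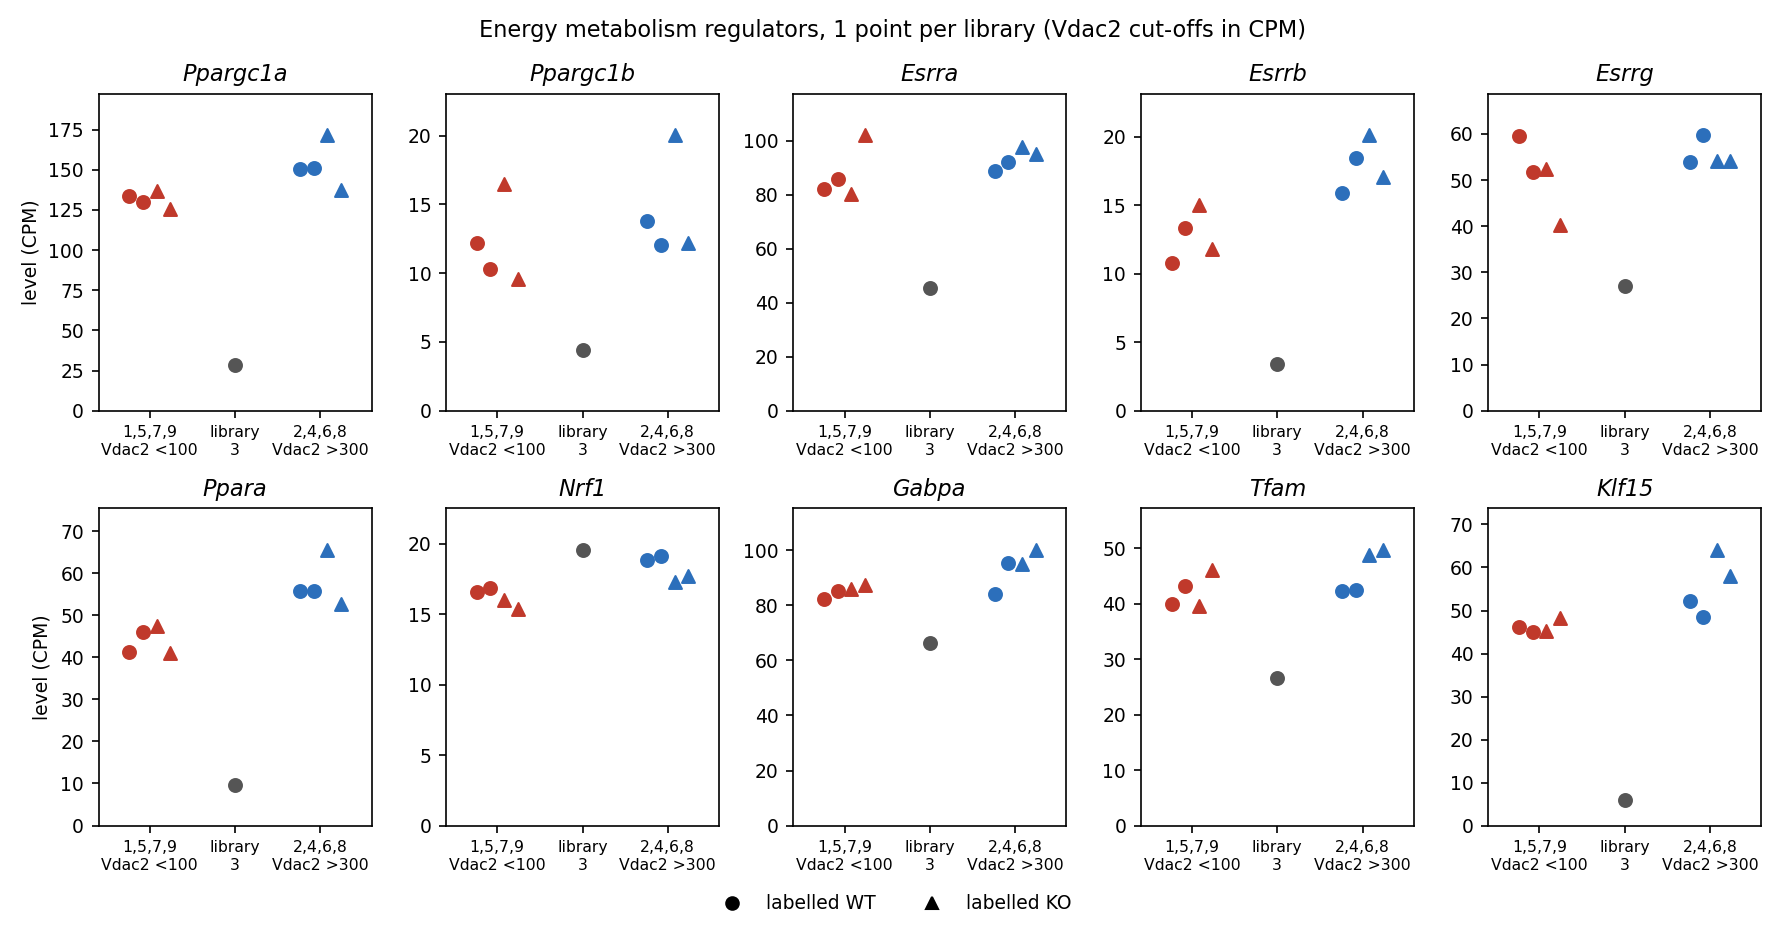
Level of each regulator in CPM (linear axis from 0), 1 point per library, with red for the 4 libraries with *Vdac2* under 100 CPM, blue for the 4 with over 300 CPM, grey for library 3, circles for libraries labelled WT and triangles for those labelled KO. *Ppargc1a*, *Esrrb*, *Ppara*, *Nrf1* and *Klf15* show no overlap between red and blue, and library 3 lies below all other points for every gene but *Nrf1*.

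In all, 5 of the 10 regulators (*Ppargc1a*, *Esrrb*, *Ppara*, *Nrf1* and *Klf15*) were lower in all 4 low than in all 4 high *Vdac2* libraries, 0 were higher in all 4, and all 10 differences were negative. Among all 16322 genes, 804 (4.93%) were lower and 1169 (7.16%) higher without overlap. The median difference was -0.19 over the regulators and 0.00 over all genes, and nothing is read from this contrast since it chose the sets. Within the libraries labelled WT alone (1 and 5 against 2 and 4) the median over the regulators was -0.16, and within those labelled KO (7 and 9 against 6 and 8) it was -0.23, with all 10 differences negative in each. In these comparisons of 2 libraries with 2, there were 6 and 8 regulators without overlap, all lower, while 23.3% and 17.1% of all genes were lower without overlap. *Esrrb* kept nearly the same size in both, at -0.49 and -0.46, as did *Ppara* at -0.35 and -0.41. *Esrrg* and *Tfam* were near 0 within the label WT, at -0.03 and -0.03, and further from it within the label KO, at -0.24 and -0.20. Whether these within-label values differ was not tested. With counts scaled by plain library size in place of TMM, only *Esrrb* and *Ppara* stayed without overlap, although all 10 differences remained negative. Among all 16322 genes, 434 were then lower and 1837 higher without overlap, against 804 and 1169 with TMM.

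Markers of cell types moved with the same split. In bulk tissue, fewer cells of a type and less RNA per cell cannot be told apart. The summed cardiomyocyte markers (*Myh6*, *Tnnt2*, *Tnni3*, *Myl2*, *Myl3*, *Actn2*, *Ryr2*, *Pln*) ran from 46990 to 53240 CPM in the low and from 55290 to 63490 CPM in the high set, 14.8% lower on average (log2 difference -0.23). All 8 were lower on average, and *Myl3* and *Actn2* without overlap. Summed leukocyte markers were at 155 to 200 CPM in the low and 97.7 to 145 CPM in the high set, led by the macrophage marker *Cd68* (log2 difference 0.93), and the T cell marker *Cd3e* was under 1 CPM in every library. Summed fibroblast markers were at 1147 to 1330 and 884 to 1148 CPM, and of their genes *Col1a1* (0.73) and *Pdgfra* (0.17) overlapped, while *Col1a2* (0.62) did not, nor did *Tcf21* (0.42), which was named after its value was seen. Endothelial sums were at 446 to 593 and 565 to 692 CPM, and mural sums at 804 to 1031 and 971 to 1142 CPM, both overlapping. All 5 endothelial markers were nonetheless lower on average, with a median difference of -0.22, and *Pecam1* narrowly without overlap.

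When each regulator was divided by the summed cardiomyocyte markers of its library, a scale chosen after the data were seen, 0 of the 10 remained without overlap and 4 of the 10 differences were negative. On this scale 0.521% of all genes were lower and 26.1% higher without overlap. The median became 0.04. The marker sums themselves differed by -0.23, so dividing by them raises the log2 difference of every gene by nearly the same amount. The place of the regulators relative to all genes, with medians of -0.19 and 0.00 before the division, is thus hardly changed by it. *Esrrb* and *Ppara* kept the most negative values, at -0.26 and -0.15, *Klf15* and *Ppargc1b* came to -0.03 each, *Ppargc1a* came to 0.02, and *Esrra* and *Tfam* turned positive at 0.13 and 0.11. Thus the direction of 6 of the 10 differences depends on whether levels are taken per total RNA or per cardiomyocyte marker RNA.

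**Figure D2:**
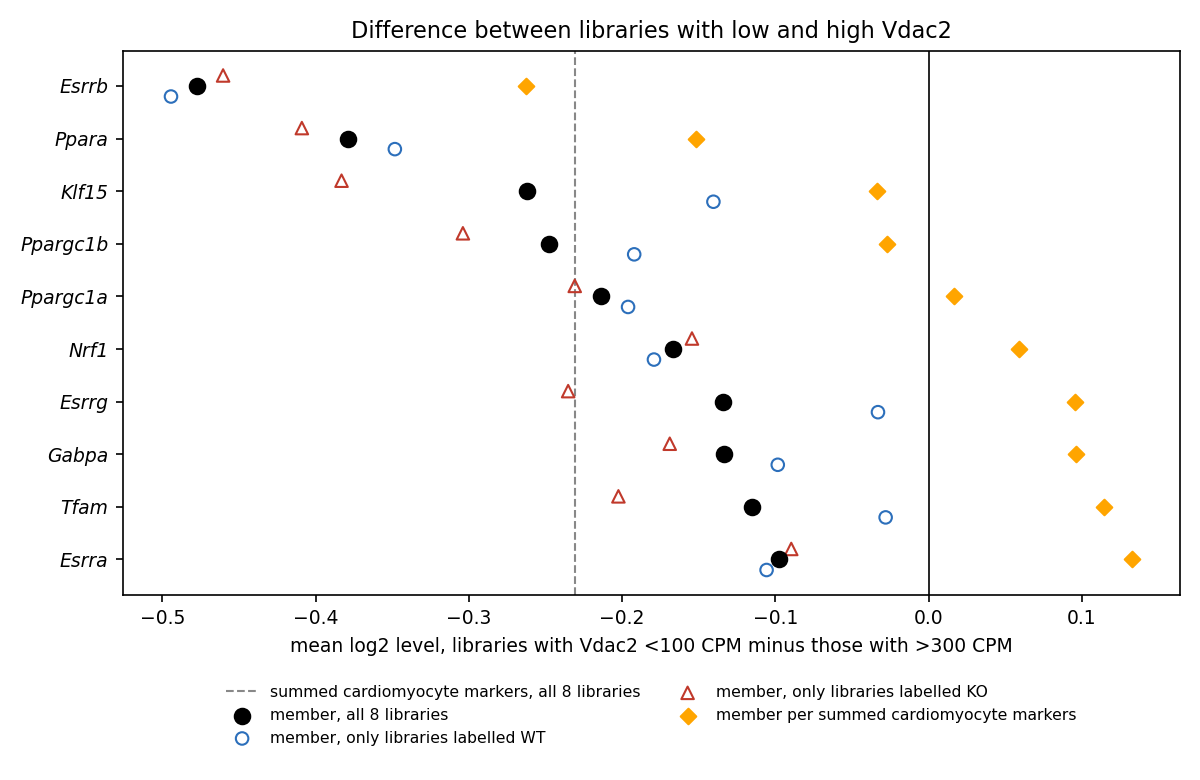
Difference of mean log2(CPM + 0.5) between the 4 low and the 4 high *Vdac2* libraries for each regulator (black), within each label (open symbols, 2 libraries against 2) and per summed cardiomyocyte markers (orange), with the marker sum itself as a dashed line at -0.23. All black points lie left of 0, from -0.48 for *Esrrb* to -0.10 for *Esrra*, while 6 of the 10 orange points lie right of 0.

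Library 3, labelled WT, had the widest departures. *Klf15* there was at 5.91 CPM, 12.2% of the median of the other 8 libraries, *Ppara* at 9.63 CPM (19.3%), *Ppargc1a* at 28.7 CPM (20.9%) and *Esrrb* at 3.40 CPM (22.0%). *Ppargc1b* (4.40 CPM, 36.1%), *Esrrg* (26.9 CPM, 49.9%) and *Esrra* (45.5 CPM, 50.4%) were next. The biogenesis factors were closer to the other libraries, *Tfam* at 26.7 CPM (62.3%) and *Gabpa* at 66.5 CPM (76.7%), and *Nrf1* at 19.6 CPM (115%) was above all 8. Thus 9 of the 10 regulators lay below and 1 above all other libraries, against 37.4% and 37.7% of all genes. The cardiomyocyte marker sum was at 17.9% of its median in this library, the fibroblast sum at 249% and the leukocyte sum at 309%. Per cardiomyocyte marker RNA, library 3 lay within the range of the other 8 for *Ppara*, below it for *Klf15* at 0.654 of the median, and above it for the other 8 regulators, at 1.10 of the median for *Ppargc1a*, 2.88 for *Esrra*, 4.15 for *Gabpa* and 6.32 for *Nrf1*. In CPM, all tested genes had a median of 98.6% in library 3, and the marker sum divided by was at 17.9%. A gene of unchanged CPM thus comes out well above the others on this scale, so a place above is not read as a result. The share of all genes above on it was not computed. How much of the low levels goes with the lower share of cardiomyocyte RNA, and how much with RNA quality, was not tested.

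**Figure D3:**
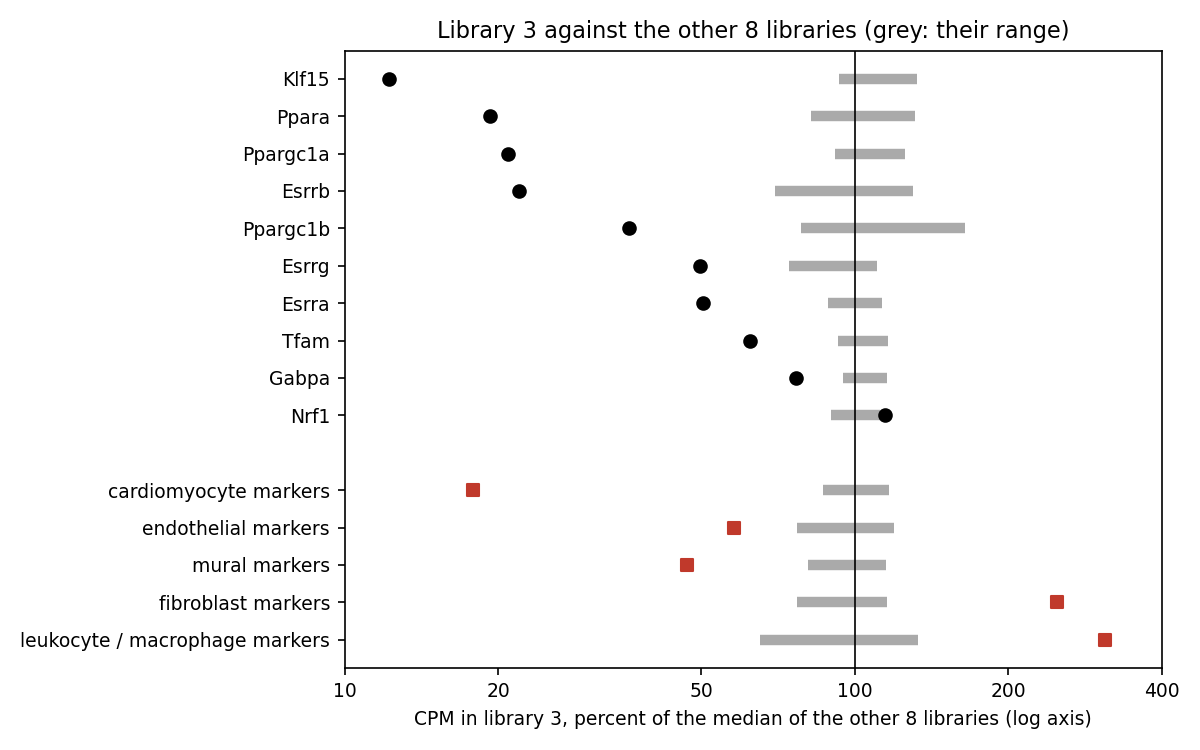
Level in library 3 as a percent of the median of the other 8 libraries (log axis), for each regulator (black) and for the summed markers of 5 cell types (red), with the range of the other 8 in grey. *Klf15*, *Ppara*, *Ppargc1a* and *Esrrb*, at 12.2% to 22.0%, lie near the cardiomyocyte markers at 17.9%, and *Nrf1* at 115% is the only regulator above 100%.

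The study's own groups were compared as labelled, KO against WT, over all 9 libraries. Of the 10 regulators, 0 differed at an adjusted p under 0.05 by edgeR's quasi-likelihood test, 0 at an unadjusted p under 0.05, and 0 by DESeq2, while 9 of 16322 genes (0.0551%) were called in all and 997 had an unadjusted p under 0.05. *Ppargc1a* averaged 119 ± 51.3 CPM (SD, n = 5) under the label WT and 143 ± 20.1 CPM (n = 4) under the label KO, a log2 difference of 0.27 (SE 0.40, adjusted p = 0.813 by edgeR). *Ppara* was at 41.7 ± 19.0 and 51.6 ± 10.4 CPM, a difference of 0.31 (SE 0.42, adjusted p = 0.788 by edgeR). *Klf15* and *Ppargc1b* had the largest values, 0.45 (SE 0.49) and 0.47 (SE 0.33), and *Esrrg* the smallest, -0.0047 (SE 0.22). The differences of *Esrra*, *Esrrb*, *Gabpa* and *Tfam* lay between 0.16 and 0.37, and *Nrf1* was at -0.13 (SE 0.09).

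Without library 3 the label differences were closer to 0 for 9 of the 10 regulators, coming to 0.01 (SE 0.10) for *Ppargc1a*, 0.05 (SE 0.15) for *Ppara*, 0.16 (SE 0.11) for *Klf15* and 0.26 (SE 0.21) for *Ppargc1b*, again with 0 of the 10 called, while the genes called in all went from 9 to 62. The exception, *Esrrg*, came to -0.17 (SE 0.10, adjusted p = 0.525 by edgeR). Leaving out each library in turn gave label differences of 0.01 to 0.37 for *Ppargc1a*, 0.05 to 0.44 for *Ppara* and 0.26 to 0.62 for *Ppargc1b*. Without library 6 these came to 0.17, 0.18 and 0.27 in that order. Since each label holds libraries of low and of high *Vdac2*, these values compare the labels as deposited.

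Levels of different genes can be compared only per length. By RPKM, the CPM divided by the exon length in kilobases, the median of the 8 libraries without library 3 put *Ppargc1a* first at 20.8 RPKM (19.0 to 26.1), next to *Esrra* at 20.6 RPKM (18.3 to 23.3) and *Klf15* at 17.3 RPKM (16.2 to 23.0). *Gabpa* followed at 15.2 RPKM, *Ppara* at 13.0 RPKM, *Tfam* at 9.65 RPKM and *Esrrg* at 8.70 RPKM. A lower group held *Ppargc1b* at 3.06 RPKM, *Esrrb* at 2.56 RPKM and *Nrf1* at 1.66 RPKM. Each gene's range overlapped that of its neighbour in this order except at the step from *Esrrg* (6.49 to 9.63 RPKM) to *Ppargc1b* (2.40 to 5.03 RPKM). Among the 4 receptors, *Esrra* thus had the highest transcript level per length and *Esrrb* the lowest. The length joins all annotated exons of a gene, 10282 bases for *Nrf1*, and can exceed that of a single transcript. The order depends on that choice.

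The regulators also differed in how they varied across libraries, given as Pearson's r of log2(CPM + 0.5) over the 8 libraries without library 3, which share library preparation and scaling. The closest pairs were *Esrrb* with *Ppara* (r = 0.95) and *Ppargc1a* with *Ppara* (r = 0.93). With each library left out in turn they stayed at 0.94 to 0.96 and 0.88 to 0.97. The lowest value was that of *Esrra* and *Esrrg* (r = -0.52), which came to 0.04 without library 9 and to 0.76 with library 3 included, so that it rests on single libraries. Among 8205 genes with a mean of at least 10 CPM, those most like *Ppargc1a* were *Rasal2* (r = 0.96), *Rab11fip3* (0.96) and *Ndrg1* (0.94). Those most like *Esrra* were *Tmed4* (0.98), *Ercc1* (0.96) and *Nkiras1* (0.96). In all, 28 genes had an r over 0.9 with *Ppargc1a* and 68 with *Esrra*. The genes named are the largest of many values over 8 libraries and are not read as partners.

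Genes around the 10 regulators were taken from lists drawn up by role. Unless another scale is named, each count below stands beside the 4.93% of all genes that were lower and the 7.16% that were higher without overlap. Counts of 1 or 2 genes are not read as a result about a list. Of 11 other nuclear receptors, 1 was lower without overlap in the low *Vdac2* libraries and 0 were higher, with a median difference of -0.19. *Nr4a1*, an immediate early orphan receptor, had the largest difference at -0.76, from 2.44 to 7.04 CPM in the low and 4.44 to 8.70 CPM in the high set, and these overlapped. *Nr1d1*, the clock repressor REV-ERBα, was at -0.37 with overlap, and *Rxrb*, a partner of PPARα in its heterodimer, at -0.02. The receptor without overlap, named after its value was seen, was *Rxrg*, another such partner, at 49.7 to 63.6 CPM in the low and 64.0 to 69.0 CPM in the high set.

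Of 20 coregulators, 3 were lower without overlap and 0 higher (median -0.11). *Perm1*, a muscle protein induced by PGC-1 and ERRs that acts with them, was at 208, 217, 201 and 212 CPM in libraries 1, 5, 7 and 9, and at 285, 274, 289 and 266 CPM in libraries 2, 4, 6 and 8. The gap between its sets was wider than the spread of either, and the difference was -0.41, with 35.4 CPM in library 3. *Lpin1*, lipin 1, a phosphatidate phosphatase that also coactivates PPARα with PGC-1α, was at 140 to 175 CPM in the low and 196 to 227 CPM in the high set (-0.36). *Prkaa2*, a catalytic subunit of AMP-activated kinase, was nearest to 0 at -0.02. The third without overlap, named after its value was seen, was *Nrip1*, the corepressor RIP140, at -0.22.

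Of 6 genes listed with GABP and NRF1, 0 were without overlap in either direction (median -0.09), with *Gabpb1*, a GABPβ subunit, at -0.15, *Hcfc1*, a chromatin cofactor, at -0.13 and *Nfe2l1*, a separate factor that shares the alias NRF1, at -0.05. Of 14 genes of mitochondrial DNA replication and transcription, 2 were lower and 1 was higher without overlap (median -0.06). *Polg2*, the accessory subunit of the mitochondrial DNA polymerase, was at 3.71 to 4.36 CPM in the low and 4.56 to 4.95 CPM in the high set (-0.21). *Mgme1*, a mitochondrial exonuclease, was at -0.18 with overlap and *Mterf3* at -0.02. The other gene lower without overlap was *Polg*, the catalytic subunit, at 59.6 to 68.7 against 70.2 to 77.7 CPM, and the higher one was *Mterf1a* at 0.17, both named after their values were seen.

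Genes that these factors act on were compared in the same way. Of 23 PPARα targets, 12 were lower without overlap in the low *Vdac2* libraries and 1 was higher, with a median of -0.29. *Acot1*, a fatty acyl-CoA thioesterase, was at 4.37, 8.02, 5.06 and 3.21 CPM in the low and 13.4, 11.2, 8.73 and 8.12 CPM in the high set, the largest difference in the list at -0.98. Library 5 of the low set and library 8 of the high set nearly met. *Ucp3*, an inner membrane carrier, was at -0.49 with overlap, its levels being 32.6 to 67.7 CPM in libraries 1, 2, 4 and 5 and 66.0 to 119 CPM in libraries 6 to 9. The 12 included the mitochondrial β-oxidation enzymes *Acadm* (803 to 886 against 971 to 1194 CPM), *Acadvl*, *Hadha*, *Hadhb* and *Cpt2*, and the fatty acid binding protein gene *Fabp3* (650 to 756 against 915 to 1031 CPM), named after their values were seen.

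Of 16 ERR targets, 2 were lower without overlap and 0 higher (median -0.14). These were *Ogdh*, a subunit of the oxoglutarate dehydrogenase of the citric acid cycle, at 946 to 1204 against 1378 to 1545 CPM (-0.40), and *Mb*, myoglobin, at 6492 to 7664 against 7685 to 9169 CPM (-0.25). *Mdh2*, mitochondrial malate dehydrogenase, was at -0.04. Of 13 NRF1 and GABP targets, 1 was lower without overlap and 0 higher (median -0.07). It was *Sdhc*, a membrane anchor of succinate dehydrogenase, at 278 to 365 against 368 to 442 CPM (-0.31), while *Ndufs8* of complex I was at -0.14 and *Tomm70a* of the import machinery at -0.03. Of 8 KLF15 targets, *Tat* did not pass the filter on low counts, and of the other 7, 2 were lower and 0 higher without overlap (median -0.32). *Gpt*, alanine aminotransferase, was at 14.7 to 26.8 against 27.3 to 40.9 CPM (-0.61), and *Bckdhb*, a subunit of the branched-chain ketoacid dehydrogenase, at 27.5 to 34.7 against 38.5 to 51.6 CPM (-0.48). *Prodh*, proline dehydrogenase, was at -0.07.

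The cardiomyocyte markers had a median of -0.26 in the same contrast, between those of the PPARα and the ERR targets. Per summed cardiomyocyte markers, a scale chosen after the data were seen, the median of the PPARα targets came to -0.06 with 1 of 23 (*Acsl1*, named after its value was seen) lower without overlap, and that of the KLF15 targets to -0.09 with 1 of 7 (*Bckdhb*). Among all genes, 0.521% were lower without overlap on this scale. The medians of the other 6 lists turned positive, from 0.04 for the nuclear receptors to 0.17 for the mitochondrial DNA genes, with 0 genes lower without overlap. Because this scale raises every gene by nearly the same amount, a positive median here does not place a list above all genes. Higher without overlap on this scale were 4 of 14 mitochondrial DNA genes, 2 of 20 coregulators, 2 of 16 ERR targets and 1 of 23 PPARα targets, against 26.1% of all genes. With plain library size all 8 medians stayed negative, and the PPARα targets lower without overlap went from 12 to 8. Among all 16322 genes, those lower without overlap went from 804 to 434 with that scaling. By the deposited labels, 0 genes of any of these 8 lists were called by edgeR, against the 0.0551% of all genes. At an unadjusted p under 0.05 there were 2 of the 20 coregulators and 1 of the 23 PPARα targets, and 0 in the other 6 lists, against 6.11% of all genes. In library 3, all 16 ERR targets, 21 of 23 PPARα targets, 11 of 13 NRF1 and GABP targets, 7 of 7 KLF15 targets and 12 of 14 mitochondrial DNA genes lay below all other 8 libraries, against 8 of 11 other nuclear receptors, 9 of 20 coregulators and 2 of the 6 genes listed with GABP and NRF1. Among all 16322 genes, 6099 (37.4%) did.

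**Figure D4:**
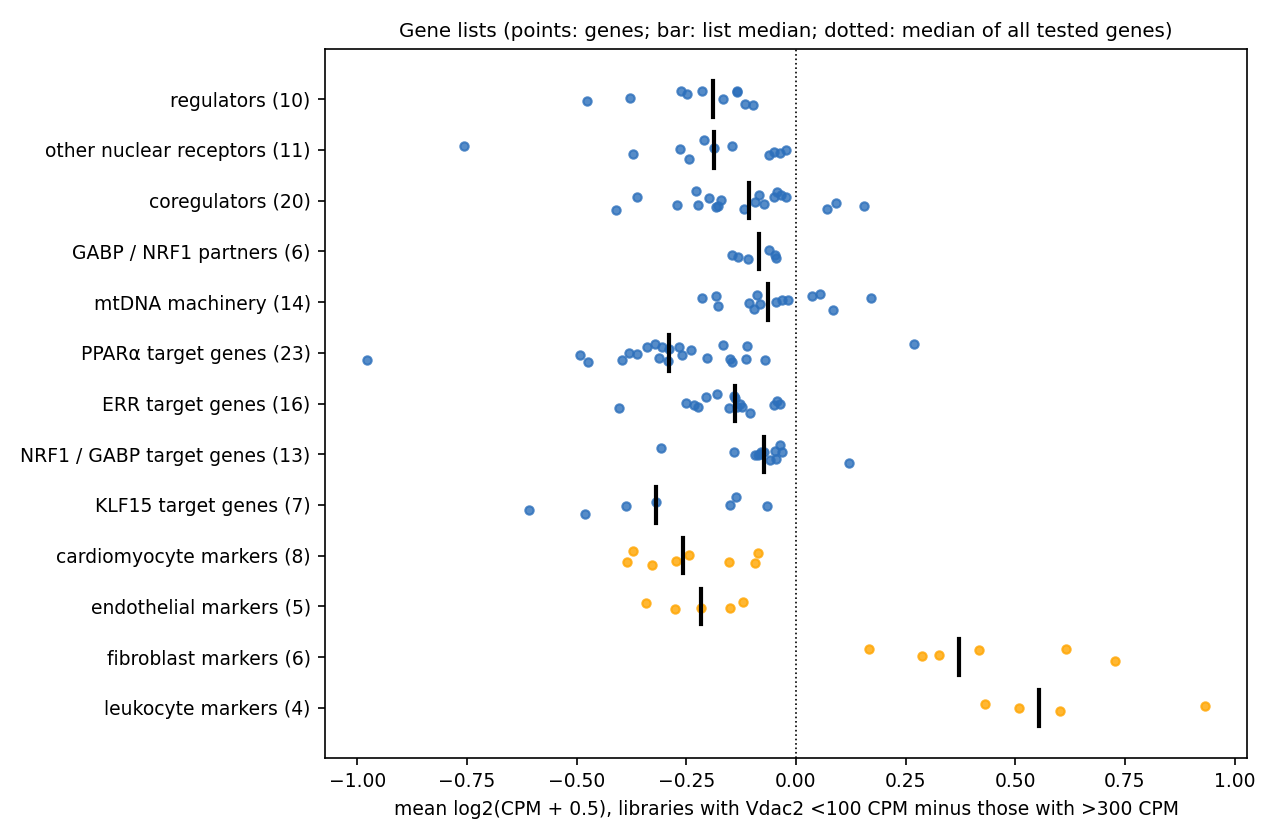
Difference of mean log2(CPM + 0.5) between the 4 low and the 4 high *Vdac2* libraries for each tested gene of each list, with blue for regulators, partners and targets, orange for cell type markers, a black bar at each list's median, a dotted line at the median of all genes and the number of genes in brackets. The medians of the PPARα and KLF15 targets, -0.29 and -0.32, lie beside that of the cardiomyocyte markers at -0.26, and the fibroblast and leukocyte markers lie right of 0, at 0.37 and 0.56.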

How the data were processed

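Total RNA (miRNeasy) was depleted of ribosomal RNA, made into stranded TruSeq libraries and sequenced as 50-base single-end reads. The authors aligned reads to GRCm38 and deposited raw counts per Ensembl gene, without normalization; the submitters' processing notes name STAR 2.7.2c and featureCounts 1.6.3. The annotation release, strand setting and handling of multiply aligned reads are not given in the sources used here, and strand bears on genes that overlap on opposite strands.

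Groups are the deposited labels (5 WT, 4 KO), and no column was left out. Counts were fitted in edgeR 4.0.16 (R 4.3.3) with filterByExpr, TMM, robust dispersions and the quasi-likelihood F-test, all 9 libraries and no covariate, with Benjamini-Hochberg adjustment over 16322 genes. The study's methods used DESeq2, which was run as an alternative (1.42.0), together with limma 3.58.1 voom quality weights, other scalings and filters, the study's fold and mean count filters, and each library left out. Library 3 was kept because the sources used here do not name the WT sample that the study removed for poor RNA quality. CPM are counts divided by the TMM-scaled library size, and differences are of mean log2(CPM + 0.5). RPKM used the joined length of all annotated exons of each gene in GENCODE M21. The fit was tested on simulated counts.

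The regulators and lists were chosen with earlier results of these data known. Per list, the genes named are the 2 with the largest absolute difference and the one nearest 0 among genes with a mean of at least 1 CPM, and other genes of these lists are marked as chosen after their values were seen, apart from markers given as under 1 CPM. Some genes of the lists are not reported here by name. Likeness used genes with a mean of at least 10 CPM. No pair of libraries agreed within sampling noise (lowest chi-square per degree of freedom 6.59). Intervals and floors cover counting error only.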

Additional observations from a re-analysis of the deposited data

Results flagged for a closer look

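Library 3, labelled WT, stood apart from the other 4 libraries of its label for 5 regulators, its gap to the nearest library taking most of the whole range of the 5. The share of the range was 0.826 for *Ppargc1a* (28.7 CPM), 0.788 for *Esrra* (45.5 CPM), 0.753 for *Esrrg* (26.9 CPM), 0.803 for *Tfam* (26.7 CPM) and 0.848 for *Klf15* (5.91 CPM). Library 9, labelled KO, stood apart from the other 3 of its label for *Esrrg* at 40.3 CPM, with a share of 0.870. In all 20 checks were made, 1 for each regulator and label, and chance alone marks about 1 in 20. Library 3 is also the library with the lowest cardiomyocyte marker sum, 9702 CPM, and the lowest share of mitochondrially encoded counts, 9.07%. No explanation was tested.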

How the results depend on the processing

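By label, 0 of the 10 regulators were called under every one of the 17 alternatives. The genes called in all, 9, became 0 with at least 10 counts in every library, 77 with library quality weights, 63 with DESeq2 and 5 to 62 when each library was left out in turn, the 62 without library 3. They became 5 without library 1, 2 or 4, all labelled WT. The label difference of *Esrrg*, -0.00, changed sign to 0.0186 with no low-count filter and ran from -0.17 to 0.09 when libraries were left out, being 0.0627, 0.0212, 0.0640 and 0.0012 without libraries 1, 2, 4 and 5 and 0.0885 without library 9. The 5 regulators without overlap between low and high *Vdac2* libraries became 2 with plain library size, 8 within the label KO (2 libraries against 2, where 17.1% of all genes were lower without overlap) and 0 per summed cardiomyocyte markers, the last chosen after seeing the data, and stayed at 5 to 6 when libraries were left out. With library 3 added to the low set they became 4, *Nrf1* being lost, and the differences moved to -0.65 for *Ppargc1a*, -0.83 for *Klf15*, -0.83 for *Esrrb*, -0.80 for *Ppara*, -0.52 for *Ppargc1b*, -0.31 for *Esrrg*, -0.28 for *Esrra*, -0.245 for *Tfam* and -0.20 for *Gabpa*. With plain library size, 434 genes were lower and 1837 higher without overlap, against 804 and 1169, and the median of all genes moved to 0.05. No paired analysis was possible because the labelled groups share no replicate number. The number of libraries, 4 or 5 a label with lane and label coinciding, and the few reads behind *Esrrb* in library 3 (126 counts) limit these values.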

Other observations

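Library 3 did not hold low levels of every gene of the coactivator circuit. *Pprc1*, the remaining member of the PGC-1 family that is induced with cell growth, was at 20.6 CPM in library 3 against 4.53 to 7.87 CPM in the other 8 libraries, while *Ppargc1a* and *Ppargc1b* were at 20.9% and 36.1% of their medians. *Kat2a*, an acetyltransferase that modifies PGC-1α, was at 15.2 CPM against 8.30 to 11.0 CPM. Of the 20 coregulators, 7 were above all other libraries there and 9 below, near the 37.7% above and 37.4% below of all genes. *Pprc1* and *Kat2a* were chosen after their values were seen.

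A few genes of the lists ran against the rest in the low *Vdac2* libraries, and the genes named here were again chosen after their values were seen. *Plin2*, a lipid droplet coat protein and PPARα target, was at 76.2 to 84.4 CPM in the low and 61.6 to 69.1 CPM in the high set (log2 difference 0.27). By contrast *Plin5*, another coat protein of the same list, was lower like most of that list, at 114 to 133 against 139 to 150 CPM (-0.24). The mitochondrial termination factor gene *Mterf1a* was at 1.38 to 1.62 against 1.13 to 1.30 CPM (0.17).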
